A study of Mus musculus with 6 samples.

Results

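The genes described here are 43 genes of DNA replication and of the supply of deoxynucleotides, measured in plasmacytoid dendritic cells (pDCs) in which the repressor genes *Gfi1* and *Gfi1b* were targeted for deletion. They were chosen by name and not by their values, though with earlier results of these data known. Each had to have a probe set with a single gene symbol in the platform annotation. Where a gene had several such probe sets, the one with the highest mean over the arrays was kept. All 43 were found, among 19919 genes measured in this way by 21640 probe sets. Each gene's value is the intensity of its probe set on a linear scale, and differences are log2 of the KO over the WT intensity, so that 1 is a doubling and a positive value is higher in KO pDCs.

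Total bone marrow of 3 C57BL/6 mice of the genotype *Gfi1* f/f; *Gfi1b* f/f; ERCre was differentiated with 25 ng/ml of Flt-3L, the cytokine on which dendritic cells depend to develop. Each mouse gave a culture to which 1 µM tamoxifen was added (KO) and a culture left without it (WT), and B220+ CD11c+ cells sorted from each were put on an Affymetrix Mouse Gene 1.0 ST array, 3 arrays per group. Both groups carry the floxed alleles and the tamoxifen-inducible Cre, which is expressed from the *Rosa26* locus and so is not limited to pDCs. With no tamoxifen-treated array from mice without Cre or without the floxed alleles, an effect of the deletion and one of tamoxifen or active Cre cannot be told apart. Genotyping PCR in the study found the deletion to be inefficient in such cultures, and no source used here gives the age of the mice. *Gfi1* had intensities of 60.5, 67.1 and 61.9 in the KO pDCs of mice 1, 2 and 3, against 56.1, 47.8 and 43.3 in their WT pDCs. *Gfi1b* had 194, 279 and 259 in KO pDCs, against 179, 161 and 155 in WT pDCs. Both genes were thus higher in the KO culture of every mouse, though the mean of *Gfi1* (55.5) was not above the background level of 62.1 described further on, while that of *Gfi1b* (199) was. Each has 1 probe set that summarises the whole transcript, so these values check nothing about the deleted exons.

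DNA is copied from origins that the origin recognition complex marks in G1, when CDC6 and CDT1 load the ring of MCM2 to MCM7 onto them. At the start of S phase, cyclin E and its kinase help to turn the loaded ring into an active helicase with CDC45 and the GINS complex. Polymerases alpha, delta and epsilon then copy the strands behind the helicase, and the PCNA clamp holds polymerase delta on the DNA. Many of these genes are targets of E2F transcription factors and are transcribed most in late G1 and S phase, so that their messages are abundant in dividing cells and scarce in resting ones. Mature pDCs, the main producers of type I interferon, divide little, while the bone marrow progenitors they come from divide actively. Intensities of bulk RNA cannot tell more dividing cells from more message per cell.

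The KO minus WT difference of these genes was not the same in the 3 mice. In mouse 1 nearly all of them were higher in the KO culture, with 40 of 43 higher (93%, against 49.8% of all tested probe sets) and a median difference of 0.44. In mice 2 and 3 most were slightly lower in the KO culture: 13 were higher in mouse 2 (30.2%, against 52.4%) with a median of -0.12, and 17 in mouse 3 (39.5%, against 56.2%) with a median of -0.10. The medians over all tested probe sets were -0.001, 0.016 and 0.039 in mice 1, 2 and 3, so the shift in mouse 1 was not shared by the array as a whole. Each pair is 1 culture against 1, so a difference within a mouse has no replicate check, and the SD of the 3 medians was 0.32.

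**Figure D1:**
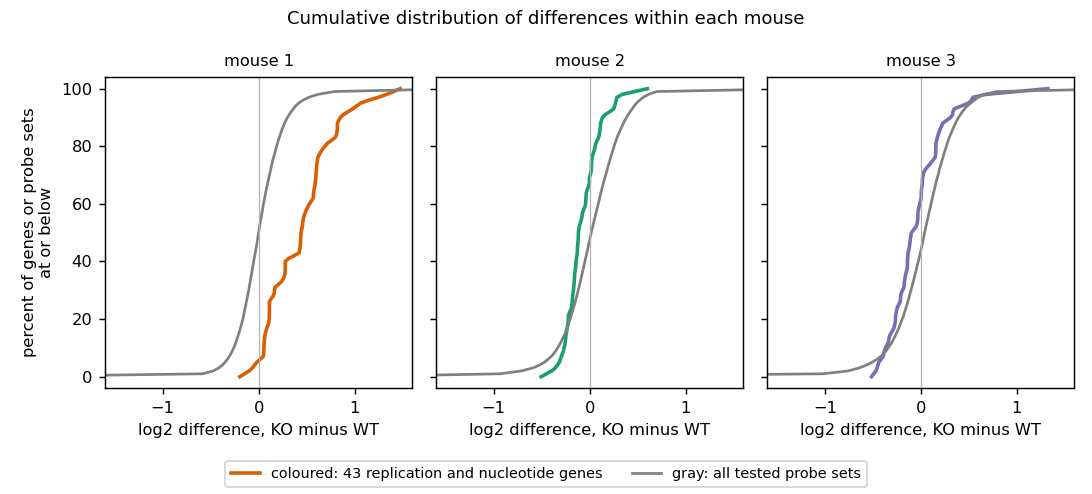
Cumulative distribution of the log2 difference, KO minus WT culture of the same mouse, in 1 panel per mouse, for the 43 replication and nucleotide genes (coloured) and all 21640 tested probe sets (gray), with the percent at or below each value on the vertical axis. In mouse 1 the coloured curve lies to the right of the gray one, around its median of 0.44, and in mice 2 and 3 it lies slightly to the left over most of its height, around medians of -0.12 and -0.10.

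The 43 differences ran from -0.19 (*Gins4*) to 1.47 (*Rrm2*) in mouse 1, with quartiles of 0.11 and 0.61. They ran from -0.51 (*Pola1*) to 0.60 (*Ung*) in mouse 2, with quartiles of -0.19 and 0.02, and from -0.51 (*Pola1*) to 1.32 (*Cdc6*) in mouse 3, with quartiles of -0.23 and 0.12. In mouse 1, 15 genes (34.9%) were at least 1.5-fold higher in the KO culture, against 2.28% of all tested probe sets: *Cdc6*, *Cdt1*, *Mcm3*, *Mcm5*, *Mcm6*, *Mcm10*, *Cdc45*, *Gins1*, *Pola1*, *Pole*, *Lig1*, *Rrm2*, *Tyms*, *Dut* and *Clspn*. None was as much lower (0.989% of all). In mouse 2 only *Ung* and in mouse 3 only *Cdc6* was at least 1.5-fold higher (backgrounds of 2.41% and 3.31%), and again none was at least 1.5-fold lower (3.13% and 3.78%).

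The same gene was often on opposite sides in different mice. Of the 43 genes, 18 (41.9%) were higher in the KO culture of mouse 1 and lower in those of mice 2 and 3, a pattern held by 11.4% of all tested probe sets: *Orc1*, *Orc6*, *Mcm3*, *Mcm4*, *Mcm6*, *Gins1*, *Pola1*, *Pola2*, *Prim1*, *Prim2*, *Pole*, *Pole2*, *Pcna*, *Rfc4*, *Lig1*, *Rrm1*, *Tyms* and *Ccne1*. Of the others, 6 were higher in all 3 mice (14%, against 21.3%), namely *Cdc6*, *Mcm7*, *Mcm10*, *Pold1*, *Rfc5* and *Fen1*, and 2 were lower in all 3 (4.65%, against 17.4%), namely *Gins4* and *Rpa1*. These counts of 6 and 2 depended on the scaling: they were 11 and 4 after a second quantile normalization, and 4 and 2 with each array centred on its median. Both arrays of mouse 1 stood at the ends of the range. The KO array of mouse 1 was the highest of the 6 arrays for 30 genes (69.8%, against 19.2% of all tested probe sets) and the WT array of mouse 1 the lowest for 18 (41.9%, against 16.3%), and 10 genes (23.3%, against 2.15%) showed both. The median intensity over the 43 genes was 152, 117 and 111 in the KO pDCs of mice 1, 2 and 3, against 103, 116 and 113 in their WT pDCs.

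**Figure D2:**
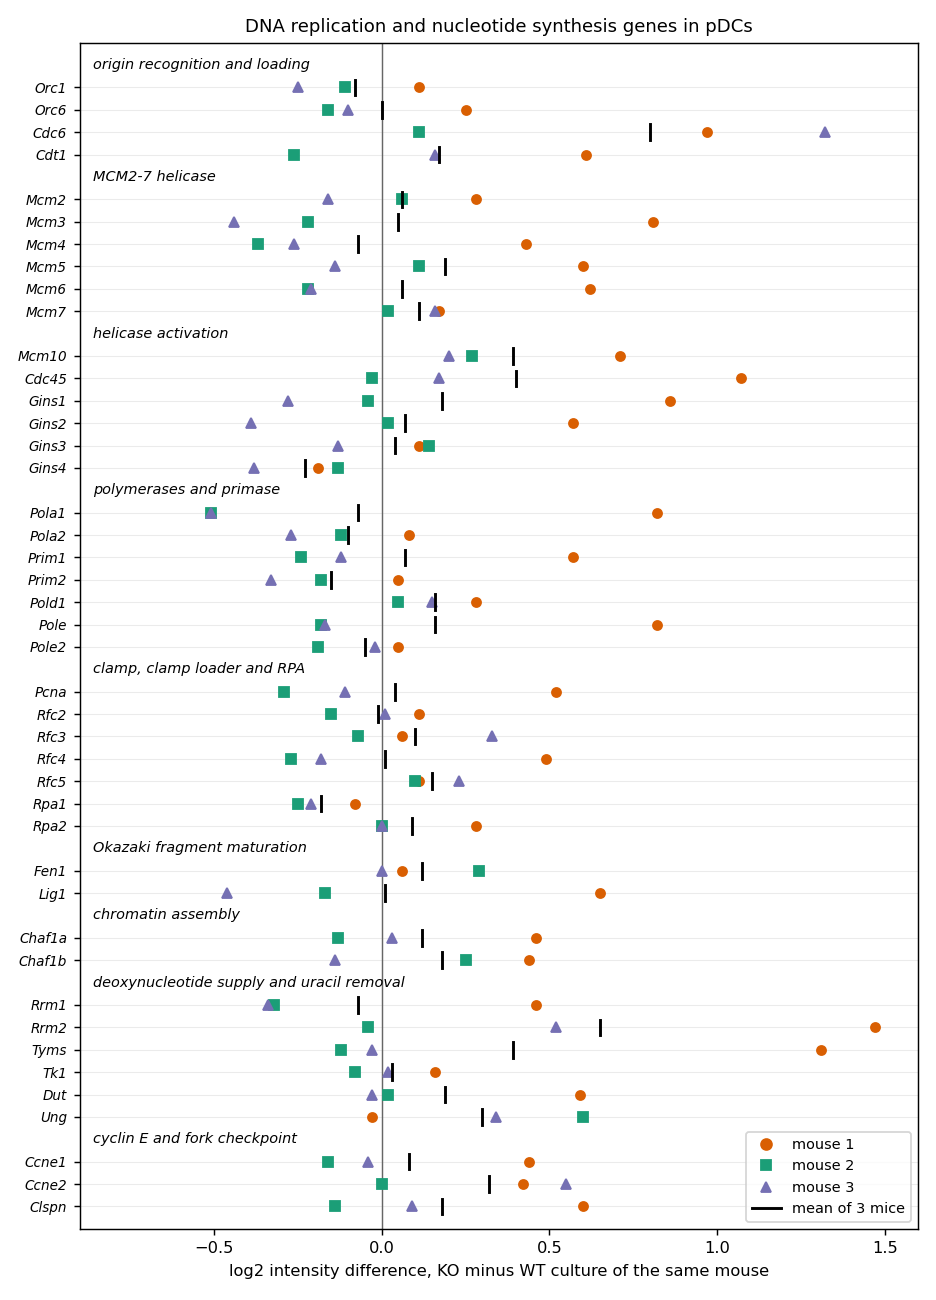
Log2 intensity difference, KO minus WT culture of the same mouse, on the horizontal axis for each of the 43 genes, ordered by role, with 1 symbol per mouse and a bar at the mean of the 3 mice. The symbols of mouse 1 lie to the right of 0 for 40 genes, while those of mice 2 and 3 lie mostly to its left, and the largest mean is that of *Cdc6*, at 0.80.

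Over the 3 mice, no gene passed limma's test across all tested probe sets. The number with an adjusted p below 0.05 was 0 of 43, against 0 of 21640 probe sets (0%), and the smallest adjusted p of the 43 was 0.69, or 0.31 with the mouse as a block. At an unadjusted p below 0.05, 3 genes (6.98%) were higher in KO pDCs, *Cdc6*, *Mcm10* and *Rrm2*, against 5.14% of all probe sets, and 0 were lower, against 1.9%. With the mouse as a block, *Ccne2* was added to the 3 (9.3%, against 7.46%), and 0 were lower (5.99%). The mean difference was above 0 for 32 genes (74.4%, against 55.9%), with a median of 0.08 and a range from -0.23 (*Gins4*) to 0.80 (*Cdc6*), while the median over all probe sets was 0.028. This direction rested on mouse 1: without it 13 genes had a mean difference above 0 (30.2%, against 56.5%), the median was -0.07, no gene had an adjusted p below 0.05 (0.499% of probe sets did), and at an unadjusted p below 0.05, 2 genes were higher (*Cdc6* and *Ung*, against 9.77% of all) and 2 lower (*Pola1* and *Rrm1*, against 7.79%). All KO arrays lay above all WT arrays for *Cdc6* and *Mcm10* (4.65%, against 10.2%), and below them for *Gins4* (2.33%, against 4.65%). None of the 43 reached a mean difference of 2-fold, against 0.0231% of probe sets at least 2-fold higher and 0.273% at least 2-fold lower. An exact two-sided permutation test of 3 arrays against 3 cannot give a p below 0.1.

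Origin recognition and loading is represented by *Orc1*, *Orc6*, *Cdc6* and *Cdt1*. *Cdc6*, the ATPase that loads the MCM ring, had intensities of 79.7, 55 and 76.9 in the KO pDCs of mice 1, 2 and 3, against 40.6, 50.8 and 30.7 in their WT pDCs. The groups did not overlap, with the 3 KO arrays above the 3 WT arrays, but mouse 2 showed a small gap of 0.11 beside 0.97 in mouse 1 and 1.32 in mouse 3. The mean log2 difference of *Cdc6* was 0.80 (standard error 0.23, adjusted p = 0.69 in limma's test and 0.31 with the mouse as a block, exact permutation p = 0.1). *Cdt1*, which brings the ring to the origin, differed by 0.61, -0.26 and 0.16 in mice 1, 2 and 3. *Orc6*, a subunit of the origin recognition complex, differed by 0.25, -0.16 and -0.10. *Orc1*, the largest subunit of that complex, had the smallest spread of these 4, with 0.11, -0.11 and -0.25 in mice 1, 2 and 3. Only *Cdc6* of these 4 genes lay on the same side in every mouse.

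The 6 subunits of the MCM2 to MCM7 ring, the engine of the replicative helicase, were all higher in the KO culture of mouse 1, with a median difference of 0.52. In mouse 2, 3 of the 6 were higher (median -0.10), and in mouse 3 only *Mcm7* was (median -0.18). *Mcm2* had intensities of 241, 185 and 148 in KO pDCs of mice 1, 2 and 3, against 199, 177 and 165 in WT pDCs. *Mcm3* had 180, 143 and 111 in KO pDCs, against 103, 167 and 151 in WT pDCs. The KO array of mouse 1 was the highest for both genes, and for *Mcm3* the order of the groups was the opposite in mice 2 and 3. *Mcm4* had 203, 149 and 128 in KO pDCs, against 150, 193 and 153 in WT pDCs. *Mcm5* had 152, 127 and 97 in KO pDCs, against 100, 118 and 107 in WT pDCs. *Mcm6* had 331, 258 and 244 in KO pDCs, against 216, 302 and 283 in WT pDCs. *Mcm4* and *Mcm6* thus repeated the order of *Mcm3*, and *Mcm5* was lower in the KO culture of mouse 3 alone. *Mcm7* had 190, 151 and 138 in KO pDCs, against 169, 149 and 124 in WT pDCs, and was the only subunit higher in the KO culture of all 3 mice, by 0.17, 0.02 and 0.16. The mean differences of the 6 subunits lay between -0.07 (*Mcm4*, 160 ± 38.8 in KO and 166 ± 23.9 in WT pDCs) and 0.19 (*Mcm5*, 125 ± 27.4 in KO and 108 ± 9.2 in WT pDCs; SD, n = 3 mice per group, adjusted p from 0.82 to 0.97 in limma's test), within the spread of the arrays of a group.

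**Figure D3:**
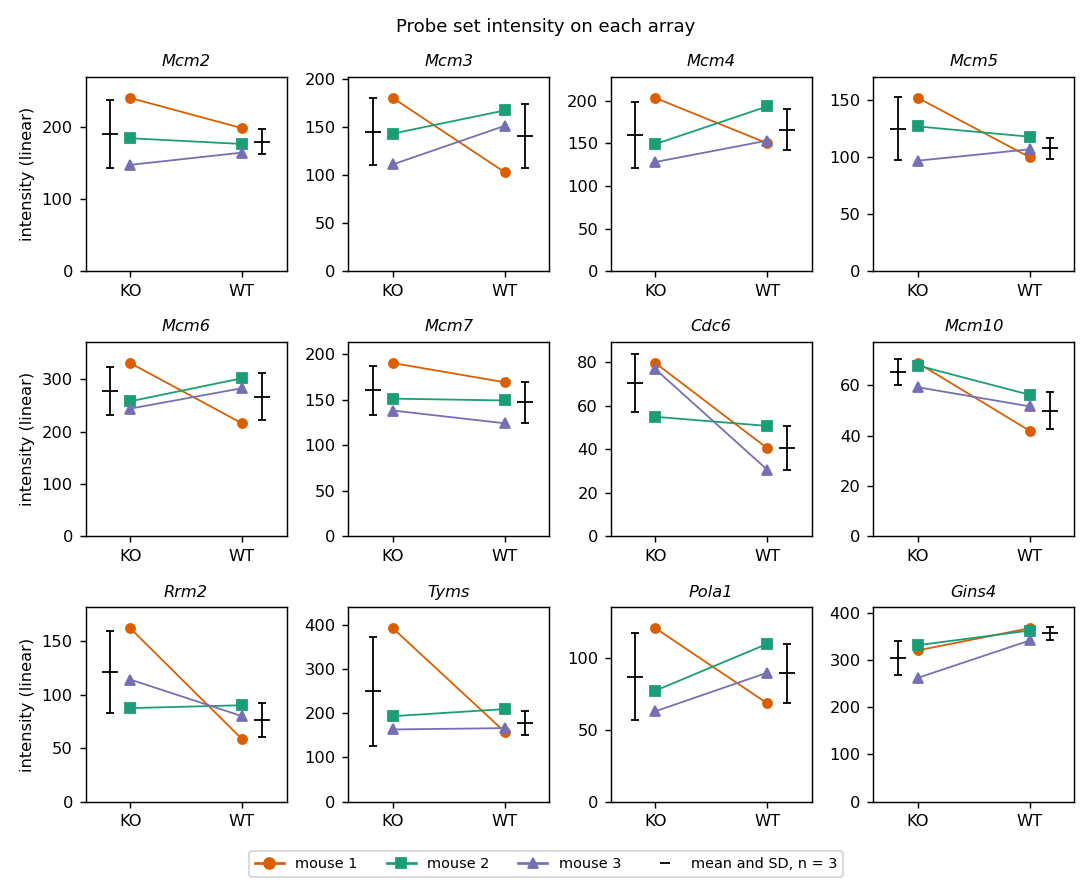
Probe set intensity (linear axis from 0) of 12 genes on each array, KO left and WT right in each panel, with 1 line joining the 2 cultures of a mouse and the mean ± SD of 3 mice beside the points. For *Mcm3*, *Mcm4*, *Mcm6* and *Pola1* the line of mouse 1 slopes the opposite way to those of mice 2 and 3, and for *Cdc6*, *Mcm10* and *Gins4* all 3 slope the same way.

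The genes that activate the helicase had the largest median difference of all the roles in mouse 1. It was 0.64 there, with 5 of 6 higher in the KO culture, against -0.01 in mouse 2 and -0.21 in mouse 3. *Mcm10*, which helps CDC45 and the helicase to fire, had intensities of 68.8, 67.8 and 59.2 in KO pDCs, against 41.9, 56.2 and 51.6 in WT pDCs. The 3 KO arrays lay above the 3 WT arrays, by 0.71, 0.27 and 0.20 within mice 1, 2 and 3. The mean log2 difference of *Mcm10* was 0.39 (standard error 0.14, adjusted p = 0.69 in limma's test and 0.33 with the mouse as a block, exact permutation p = 0.1). *Cdc45*, the helicase cofactor, had 176, 102 and 118 in KO pDCs, against 83.7, 104 and 105 in WT pDCs. Its difference of 1.07 in mouse 1 stood beside -0.03 and 0.17 in mice 2 and 3. The 4 subunits of GINS, the other cofactor, differed from one another: *Gins1* differed by 0.86, -0.04 and -0.28 in mice 1, 2 and 3, *Gins2* by 0.57, 0.02 and -0.39, and *Gins3* by 0.11, 0.14 and -0.13. *Gins4* had 320, 331 and 262 in KO pDCs, against 367, 362 and 341 in WT pDCs. It was the only 1 of the 43 whose KO arrays all lay below the WT arrays, with a mean log2 difference of -0.23 (standard error 0.12, adjusted p = 0.72 in limma's test, exact permutation p = 0.1).

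The 7 genes of the polymerases and primase were all higher in the KO culture of mouse 1 (median 0.28), and only *Pold1* was higher in those of mice 2 and 3 (medians -0.18 and -0.17). *Pola1*, the catalytic subunit of polymerase alpha, had intensities of 121, 77.4 and 63 in KO pDCs, against 68.6, 110 and 89.9 in WT pDCs. Its differences of 0.82, -0.51 and -0.51 gave a mean of -0.07 (standard error 0.28, adjusted p = 0.97 in limma's test). It had the lowest difference of the 43 genes in both mouse 2 and mouse 3, and without mouse 1 its mean difference was -0.51. *Pole*, the catalytic subunit of polymerase epsilon, differed by 0.82, -0.18 and -0.17, and *Prim1*, the catalytic subunit of primase, by 0.57, -0.24 and -0.12. *Pold1*, the catalytic subunit of polymerase delta, had 265, 216 and 222 in KO pDCs, against 219, 209 and 200 in WT pDCs. It was higher in all 3 mice, with a mean of 0.16 (standard error 0.11, adjusted p = 0.77). The accessory subunits *Pola2*, *Prim2* and *Pole2* differed little in mouse 1 (0.08, 0.05 and 0.05) and were lower in the KO cultures of mice 2 and 3 (-0.33 to -0.02).

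The sliding clamp, the clamp loader and the single-strand binding protein RPA showed the smallest shift in mouse 1 of the roles, with a median of 0.11, against -0.15 and 0.00 in mice 2 and 3. *Pcna*, the clamp, had intensities of 1808, 2270 and 2412 in KO pDCs, against 1260, 2782 and 2603 in WT pDCs. Both arrays of mouse 1 were below the other 4, and the KO culture was higher in that mouse only (0.52, beside -0.29 and -0.11). A second probe set of *Pcna* gave 1615, 1739 and 1658 in KO pDCs, against 1306, 1833 and 1925 in WT pDCs, with the same order within each mouse. Among the clamp loader genes, *Rfc5* had 451, 374 and 377 in KO pDCs, against 417, 350 and 322 in WT pDCs. It was higher in all 3 mice by 0.11, 0.10 and 0.23 (mean 0.15, standard error 0.14, adjusted p = 0.82), while *Rfc4* differed by 0.49, -0.27 and -0.18, *Rfc3* by 0.06, -0.07 and 0.33, and *Rfc2* by 0.11, -0.15 and 0.01. *Rpa1*, the largest subunit of RPA, had 220, 181 and 169 in KO pDCs, against 232, 214 and 196 in WT pDCs. Its KO culture was lower in all 3 mice, with a mean difference of -0.18 (standard error 0.13, adjusted p = 0.78), but the groups overlapped, and *Rpa2* was on the other side in mouse 1 (0.28) and at 0.00 in mice 2 and 3.

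For the maturation of Okazaki fragments, *Fen1*, which trims their flaps, had intensities of 125, 117 and 104 in KO pDCs, against 119, 96.1 and 104 in WT pDCs. The KO culture was higher by 0.06 and 0.29 in mice 1 and 2 and by a margin that rounds to 0.00 in mouse 3, with a mean of 0.12 (standard error 0.12, adjusted p = 0.84). *Lig1*, which seals the fragments, had 147, 139 and 109 in KO pDCs, against 93.2, 156 and 151 in WT pDCs. It had the order of *Mcm3*, at 0.65 in mouse 1 and -0.17 and -0.46 in mice 2 and 3. The chromatin assembly genes *Chaf1a* and *Chaf1b*, which place histones on the new DNA, differed by 0.46 and 0.44 in mouse 1, by -0.13 and 0.25 in mouse 2, and by 0.03 and -0.14 in mouse 3.

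The enzymes of deoxynucleotide supply held the largest differences of mouse 1. *Rrm2*, the S phase subunit of ribonucleotide reductase, had intensities of 162, 87.3 and 114 in KO pDCs, against 58.4, 90 and 79.8 in WT pDCs. The KO array of mouse 1 was the highest and the WT array of mouse 1 the lowest, and the groups overlapped through mouse 2. The differences of 1.47, -0.04 and 0.52 gave a mean of 0.65 (standard error 0.27, adjusted p = 0.70 in limma's test and 0.36 with the mouse as a block, exact permutation p = 0.2). *Tyms*, thymidylate synthase, had 392, 193 and 163 in KO pDCs, against 158, 209 and 166 in WT pDCs. Here the KO array of mouse 1 stood alone, and the other 5 arrays lay between 158 and 209. The mean log2 difference of *Tyms* was 0.39 (standard error 0.33, adjusted p = 0.80), from 1.31 in mouse 1 and -0.12 and -0.03 in mice 2 and 3. *Rrm1*, the partner of RRM2, had 332, 223 and 219 in KO pDCs, against 242, 278 and 277 in WT pDCs. It was higher in mouse 1 (0.46) and lower in mice 2 and 3 (-0.32 and -0.34). *Dut*, which breaks down dUTP, differed by 0.59, 0.02 and -0.03. *Ung*, which cuts uracil out of DNA, was the exception of the group. It had 96.8, 80 and 81.5 in KO pDCs, against 98.6, 52.7 and 64.5 in WT pDCs, so the KO culture was level in mouse 1 and higher in mice 2 and 3 (0.60 and 0.34).

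*Tk1*, the S phase thymidine kinase, differed more between mice than between the cultures of a mouse. It had intensities of 702, 423 and 435 in KO pDCs, against 628, 448 and 430 in WT pDCs. Both cultures of mouse 1 were above all 4 cultures of mice 2 and 3, and within a mouse the cultures differed by 0.16, -0.08 and 0.02. In a limma fit with group and mouse as factors, *Tk1* was the only gene of the 43 that differed between mice (adjusted p = 0.039; 2.33%, against 8.91% of all tested probe sets), with 7 at an unadjusted p below 0.05 (*Mcm2*, *Mcm7*, *Gins3*, *Pole2*, *Pcna*, *Tk1* and *Ung*; 16.3%, against 22.5%). The call was lost when the 2 probe sets of *Tk1* were averaged. Its second, dimmer probe set did not show this difference, with 254.7, 223.3 and 259.9 in KO pDCs, against 220.3, 218.1 and 222.2 in WT pDCs (adjusted p = 0.80 between mice). Probe sets were assigned by symbol alone, and where those of *Tk1* and *Pcna* match the genome was not checked. The call of *Tk1* was lost as well whenever any array or mouse was left out. *Pcna* and *Ung* passed instead without the KO array of mouse 1 and *Pola1* and *Tyms* without its WT array.

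The last role holds the cyclins E, which drive entry into S phase, and *Clspn*, an adaptor of the checkpoint that guards the fork. *Ccne1* had intensities of 97.2, 91.9 and 98.5 in KO pDCs, against 71.6, 103 and 101 in WT pDCs. The KO arrays were nearly level (95.9 ± 3.48, against 91.9 ± 17.6 in WT pDCs; SD, n = 3 mice per group), and the difference in mouse 1 came with a low WT array. *Ccne2* had 75.3, 50 and 66.9 in KO pDCs, against 56.3, 50.1 and 45.6 in WT pDCs. It was higher in mice 1 and 3 (0.42 and 0.55) and level in mouse 2, with a mean of 0.32 (standard error 0.17, adjusted p = 0.73 in limma's test and 0.37 with the mouse as a block). *Clspn* differed by 0.60, -0.14 and 0.09 in mice 1, 2 and 3.

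Some of these genes were too dim for their differences to be read at face value. Receptor genes of the nose, which pDCs have no known use for, were taken as a scale of background: the 95th percentile of 1194 of them was 62.1, and a difference near this level is compressed. By their mean, 35 of the 43 genes were above it and 8 were not, namely *Orc1*, *Cdc6*, *Mcm10*, *Gins1*, *Pole*, *Pole2*, *Chaf1b* and *Ccne2*. Both genes whose KO arrays all lay above the WT arrays, *Cdc6* and *Mcm10*, are among those 8. The medians of the 35 brighter genes alone were 0.44, -0.13 and -0.10 in mice 1, 2 and 3. In mouse 1, 42.7% of the 12464 probe sets above this level were higher in the KO culture and 2.18% at least 1.5-fold higher, so the background was no higher among bright probe sets.

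Many of these promoters share letters that E2F factors bind. The sequence from 250 bases before to 50 bases after a transcript start was taken from RefSeq (GRCm38.p6) for 35 of the 43 genes, the entries for *Mcm4*, *Gins1*, *Gins2*, *Gins4*, *Prim2*, *Pole*, *Rfc2* and *Ccne2* not being matched. Any of the E2F words TTTCCCGC, TTTCGCGC, TTTGGCGC and TTTGCCGC, on either strand, stood in 14 of the 35 (40%), against 2.6% of 27025 genes with a promoter (2.26% of 32851 promoters): *Orc1*, *Cdc6*, *Cdt1*, *Mcm3*, *Mcm5*, *Mcm6*, *Mcm7*, *Gins3*, *Pola1*, *Pold1*, *Pole2*, *Rfc3*, *Lig1* and *Clspn*. The CCAAT box, the letters bound by NF-Y, stood on either strand in 20 (57.1%, against 41.1% of genes and 37.4% of promoters). The word TTTGAA of the cell cycle homology region, known from promoters of mitosis genes, stood in 4 (11.4%, against 20.2% of genes and 17.9% of promoters). A CCAAT box shares 1 base with an E2F word in *Mcm7*, and E2F words overlap each other in *Mcm5* and *Mcm6*. Shown are the promoters of *Cdc6*, the gene with the largest mean difference, of *Mcm3*, *Mcm6* and *Pola1*, which were higher in the KO culture of mouse 1 and lower in those of mice 2 and 3, and of *Rrm2*, the gene with the largest difference in mouse 1 and none of the E2F words. Each is written 5′ to 3′ on the strand of the gene, with the E2F words and CCAAT boxes (ATTGG where the box is on the other strand) in capitals.
*Cdc6*, chr11:98907901-98908200, plus strand: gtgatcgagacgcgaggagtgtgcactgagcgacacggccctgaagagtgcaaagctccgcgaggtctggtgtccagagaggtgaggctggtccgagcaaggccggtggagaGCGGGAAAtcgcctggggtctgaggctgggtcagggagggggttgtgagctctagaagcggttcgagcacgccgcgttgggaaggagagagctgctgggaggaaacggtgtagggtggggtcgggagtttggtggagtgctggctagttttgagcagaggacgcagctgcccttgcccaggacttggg
*Mcm3*, chr1:20820263-20820562, minus strand: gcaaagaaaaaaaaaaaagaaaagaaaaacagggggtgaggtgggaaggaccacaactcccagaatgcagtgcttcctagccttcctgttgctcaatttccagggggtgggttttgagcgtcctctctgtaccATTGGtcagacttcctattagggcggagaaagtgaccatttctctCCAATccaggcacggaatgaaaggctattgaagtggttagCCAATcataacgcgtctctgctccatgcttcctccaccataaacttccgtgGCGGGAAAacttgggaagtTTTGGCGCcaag
*Mcm6*, chr1:128359656-128359955, minus strand: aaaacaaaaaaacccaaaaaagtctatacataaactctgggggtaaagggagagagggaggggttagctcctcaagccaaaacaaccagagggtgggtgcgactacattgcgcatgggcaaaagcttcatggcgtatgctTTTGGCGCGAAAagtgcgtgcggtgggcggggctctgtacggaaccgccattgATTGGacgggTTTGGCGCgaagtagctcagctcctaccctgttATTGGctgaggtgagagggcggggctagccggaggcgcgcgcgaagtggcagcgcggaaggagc
*Pola1*, chrX:93632106-93632405, minus strand: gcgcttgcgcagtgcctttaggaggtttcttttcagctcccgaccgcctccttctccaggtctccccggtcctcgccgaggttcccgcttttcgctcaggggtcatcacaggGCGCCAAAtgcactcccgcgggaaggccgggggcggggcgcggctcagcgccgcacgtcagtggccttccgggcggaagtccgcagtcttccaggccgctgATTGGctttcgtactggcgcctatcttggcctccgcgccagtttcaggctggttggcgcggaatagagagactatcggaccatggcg
*Rrm2*, chr12:24708004-24708303, plus strand: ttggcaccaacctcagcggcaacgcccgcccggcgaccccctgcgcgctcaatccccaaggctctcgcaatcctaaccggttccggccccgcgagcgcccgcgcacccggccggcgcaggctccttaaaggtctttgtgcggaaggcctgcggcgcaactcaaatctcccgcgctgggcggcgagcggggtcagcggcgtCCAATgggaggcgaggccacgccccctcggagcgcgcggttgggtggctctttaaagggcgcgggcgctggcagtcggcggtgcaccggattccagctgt
The E2F word of *Cdc6* begins at position -138 from the transcript start used, and that of *Pola1* at -138 too. Each is the reverse complement of a listed word. For both genes the start used lies inside the annotated gene (chr11:98907709-98923942 and chrX:93304766-93632387), and so does the word. *Mcm3* has 2 E2F words, beginning at 20 and 39, and CCAAT boxes at -117, -72 and -32. *Mcm6* has 3, at -110, -106 and -47, the first 2 overlapping, and boxes at -57 and -14. *Rrm2* has a single CCAAT box at -50. A match of letters is not a bound site, and a gene without these exact words can still be an E2F target. The medians of the 14 genes with and the 21 without an E2F word were 0.60 and 0.44 in mouse 1. They were -0.12 and -0.08 in mouse 2, and -0.07 and -0.03 in mouse 3. Whether the medians differ was not tested.

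Other genes of the same steps were listed by function and not by how they moved, though with earlier results of these data known. Of 37 further fork and licensing genes, 27 were higher in the KO culture of mouse 1 (against 49.8% of all tested probe sets). Their medians were 0.15, -0.12 and 0.00 in mice 1, 2 and 3. *Ticrr*, which brings CDC45 to origins, and *Timeless*, a fork protection protein, were higher in all 3 mice (mean differences of 0.49 and 0.40). They were the 2 of these 37 at an unadjusted p below 0.05 in limma's test, where 5.14% of all probe sets were higher. The mean intensity of both (55.8 and 60.7) was not above the nasal receptor level. *Orc3* (mean difference -0.21) and *Pold4* (-0.18) were lower in all 3 mice. Of 22 measured genes of nucleotide synthesis and salvage, of 24 listed, 10 were higher in the KO culture of mouse 1 (against 49.8%). Their medians were -0.03, -0.15 and -0.05. Only 2 of the 22 were higher in all 3 mice, against 21.3% of all tested probe sets, and 9 were lower in all 3, against 17.4%. The 2 were *Dhodh* and *Pfas*, of pyrimidine and purine synthesis (mean differences of 0.08 and 0.03), both by a margin that rounds to 0.00 in mouse 3. *Ctps* and *Umps*, of pyrimidine synthesis, had the largest mean differences of the 9 (-0.33 and -0.23).

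Of 29 measured genes of G1/S control, of 30 listed, 16 were higher in the KO culture of mouse 1 (against 49.8% of all tested probe sets). Their medians were 0.11, -0.09 and 0.01. *E2f8*, a repressor that acts on E2F targets, had 125, 85.6 and 73.3 in KO pDCs, against 43.6, 72.9 and 72.7 in WT pDCs, and *Cdkn1c*, an inhibitor of cyclin-dependent kinases, had 110, 275 and 320 in KO pDCs, against 90.6, 153 and 173 in WT pDCs. *Myc*, a driver of growth and division, was lower in the KO culture of all 3 mice, with 63.5, 177 and 203, against 80.1, 347 and 442 in WT pDCs, and *Cdk6*, a G1 kinase, had 323, 327 and 297 in KO pDCs, against 357, 349 and 457 in WT pDCs. Mean differences were 0.59, 0.67, -0.81 and -0.29 for *E2f8*, *Cdkn1c*, *Myc* and *Cdk6*. Their adjusted p ran from 0.71 to 0.81 in limma's test, and from 0.29 to 0.4 with the mouse as a block. *Cdkn1c* and *Myc* also differed between mice (adjusted p = 0.015 and 0.003 in the limma fit with group and mouse as factors). Of 31 measured mitosis genes, of 32 listed, all 31 were higher in the KO culture of mouse 1 (median 1.30), 1 in mouse 2 (median -0.23) and 5 in mouse 3 (median -0.25). Mitosis genes thus stood on the same side as most replication genes in each mouse. None of these 119 genes passed limma's test across all probe sets, with 3 higher and 0 lower at an unadjusted p below 0.05, or 7 higher and 2 lower with the mouse as a block (backgrounds of 5.14% and 1.9%, and of 7.46% and 5.99%). Without mouse 1 there were 6 higher (5.04%, against 9.77% of all tested probe sets) and 17 lower (14.3%, against 7.79%), none with an adjusted p below 0.05.

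**Figure D4:**
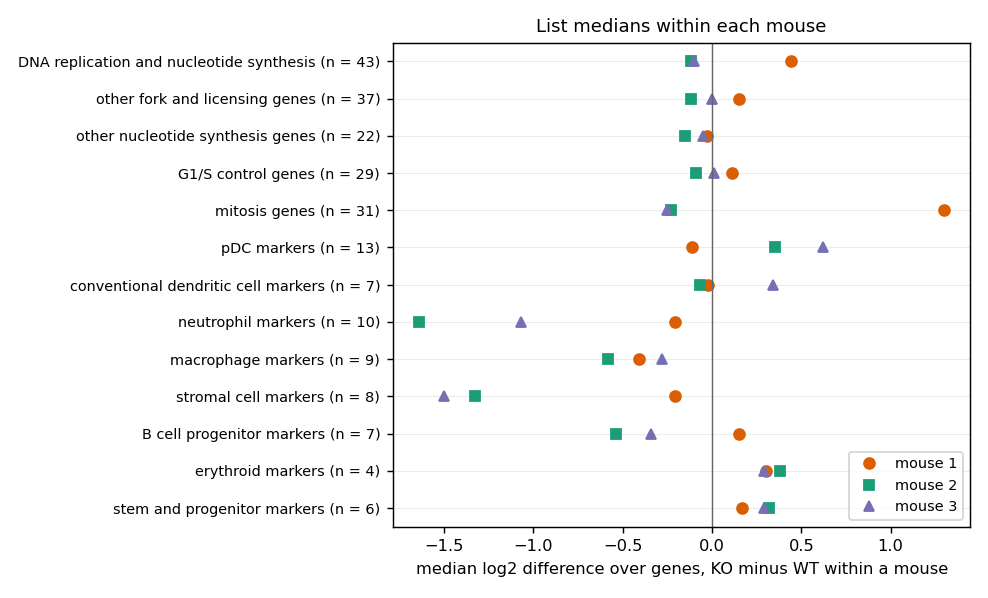
Median log2 difference, KO minus WT culture of the same mouse, over the genes of each list, with 1 symbol per mouse. The replication genes (0.44, -0.12 and -0.10 in mice 1, 2 and 3) and the mitosis genes (1.30, -0.23 and -0.25) have mouse 1 to the right of 0 and mice 2 and 3 to its left, while the neutrophil and stromal cell markers have mice 2 and 3 farthest to the left.

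The arrays of mouse 1 stood apart from those of mice 2 and 3 over all genes, and the first principal component, with 70.8% of the variance, separated them. All 13 measured pDC markers of 14 listed were above the nasal receptor level, and their summed intensity was 43058, 31756 and 29474 in the KO pDCs of mice 1, 2 and 3, against 45018, 25030 and 21121 in WT pDCs. Markers of other cell types differed between the arrays as well. The 10 neutrophil markers summed to 608, 2453 and 4363 in KO pDCs, against 1387, 8416 and 9629 in WT pDCs. The 9 macrophage markers summed to 4404, 16190 and 18415 in KO pDCs, against 5103, 20822 and 20909 in WT pDCs, and the 8 stromal cell markers to 454, 2628 and 2603, against 512, 6986 and 6933. The 7 measured B cell progenitor markers of 8 listed summed to 1251, 2717 and 2896 in KO pDCs, against 994, 4048 and 3782 in WT pDCs. The cultures of mouse 1 thus had the lowest sums of these 4 lists, and in mice 2 and 3 these 4 sums were lower in KO pDCs. The order of the sums did not hold for every member. *Vpreb1* and *Igll1*, the surrogate light chain genes of B cell progenitors, were higher in the KO cultures of mice 2 and 3 (0.42 and 0.39 for *Vpreb1*, 0.31 and 0.22 for *Igll1*). In mouse 3, 4 of the 10 neutrophil markers were higher in the KO culture, namely *Elane*, *Mpo*, *Prtn3* and *Ctsg*. *Ctsg* was higher in that of mouse 2 as well (0.59). Of the 9 macrophage markers, 3 were higher in the KO culture of mouse 3. They were *Cd68* (5419, against 5341), *C1qc* (3791, against 3710) and *Cd14* (1116, against 1008).

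The sums of the other 3 lists went the other way in mice 2 and 3. The 6 measured stem and progenitor markers of 7 listed summed to 2073, 1660 and 1389 in KO pDCs, against 2207, 1117 and 872 in WT pDCs. The 7 conventional dendritic cell markers summed to 5323, 6268 and 6149 in KO pDCs, against 4924, 6137 and 5465 in WT pDCs. In mouse 2 only 3 of these 7 were higher in KO pDCs (median difference -0.07), among them *Clec9a* (1089, against 764). The 4 measured erythroid markers of 7 listed summed to 255, 257 and 236 in KO pDCs, against 213, 201 and 214 in WT pDCs. Of these 4, *Klf1* and *Car1* were not above the nasal receptor level. The stem and progenitor sum was thus highest in mouse 1, and higher in KO pDCs in mice 2 and 3. It was carried mostly by *Flt3*, with 1569, 1215 and 976 in KO pDCs, against 1767, 756 and 526 in WT pDCs. The order of the arrays was the same for the sum as for *Flt3*. *Kit* had 126, 129 and 131 in KO pDCs, against 107, 98.5 and 80.8 in WT pDCs, so among KO pDCs it was not highest in mouse 1. The mean intensities of *Cd34* and *Hlf* were not above the nasal receptor level. The summed intensity of the 43 genes was 9304, 8097 and 8054 in KO pDCs, against 7061, 8965 and 8470 in WT pDCs. The part of other cells in the differences of the replication genes was not tested.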

How the data were processed

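The file deposited by the authors holds linear intensities (3.07 to 19106) for 34760 probe sets on 6 Affymetrix Mouse Gene 1.0 ST arrays, made from 200 ng of total RNA each. Column medians were close (72.4 to 72.9 in KO and 69.0 to 70.5 in WT pDCs), so the arrays were taken as normalized to each other by the authors. Their background correction and summary of probes are, for these arrays, not stated in any source used here. The platform table pairs 21640 probe sets with 1 symbol, 1321 with several and 11799 with none. Groups and mice came from the labels.

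Log2 intensities of the 21640 were fitted by limma (version 3.58.1, R 4.3.3); p-values are two-sided, were adjusted by Benjamini-Hochberg over all 21640, and passed below 0.05. KO and WT arrays were compared without a block, and with the mouse as a block, since both cultures of a mouse share an animal (correlation of their deviations from the group means 0.81, 0.51 and 0.67 for mice 1, 2 and 3). Steps were tested on simulated data. The precision is limited by 3 arrays per group.

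Values on each array are given for *Mcm2* to *Mcm7*, *Pcna*, *Rrm2*, *Tyms*, *Tk1*, *Ccne1* and *Ccne2*, and for up to 5 genes in each direction with the largest mean difference among those alike in all 3 mice; of each other list up to 2 per direction are named by the same rule. *Cdc45*, *Pola1*, *Lig1*, *Rrm1* and *Ung* were added after their values were seen. The genes and lists were chosen with earlier results of these data known. Alternatives were another quantile normalization, centring of arrays, a floor, a filter on dim probe sets, a trended and robust prior, averaged probe sets, the mouse block, and each array or mouse left out.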

Additional observations from a re-analysis of the deposited data

How the results depend on the processing

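Over 678 values of single replication genes under the alternatives, none passed the adjusted threshold in limma's test of KO against WT pDCs (smallest adjusted p 0.17), and 599 kept the direction of the mean difference. The block did not change the adjusted calls or the median (0.08), but it moved the other pathway genes at an unadjusted p below 0.05 to 7 higher and 2 lower, against 3 and 0. Outside left-out arrays the direction reversed for *Orc6* (0.05, beside -0.00 as reported), *Rfc2* (0.07) and *Rrm1* (0.01) after a second quantile normalization and for *Rfc4* (-0.02) and *Lig1* (-0.02) with centred arrays. The number of replication genes higher at an unadjusted p below 0.05, 3, was 0 with dim probe sets left out and 0 to 4 with an array or mouse left out. It was 1 when the KO array of mouse 1 was dropped and 0 when mouse 3 was, and the number lower was 0 to 2. The share of all probe sets higher at this p also moved, from 5.14% to 7.46% with the block and 9.77% without mouse 1. It was not counted under the other alternatives, so their counts cannot be set against it. Of the other pathway genes, 1 was higher with centred arrays and 1 with dim probe sets left out, 1 each lower after quantile normalization, with centred arrays and with a floor, and with arrays left out 0 to 6 were higher and 0 to 17 lower, the 17 without mouse 1 (14.3%, against 7.79% of all probe sets). Genes higher and lower in all 3 mice numbered 11 and 4 after quantile normalization. The count between mice was 0 with averaged probe sets and 0 to 2 with arrays left out, never including *Tk1*: *Pcna* and *Ung* without the KO array of mouse 1, *Pola1* and *Tyms* without its WT array. The causes were not tested.

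With an array or mouse left out, the median difference ran from -0.07 to 0.17, and 29 genes turned direction. Their mean differences ran from -0.10 to 0.20 for *Ccne1*, -0.09 to 0.38 for *Cdt1*, -0.05 to 0.25 for *Chaf1a*, -0.02 to 0.35 for *Clspn*, -0.00 to 0.31 for *Dut*, -0.16 to 0.41 for *Gins1*, -0.19 to 0.29 for *Gins2*, -0.06 to 0.22 for *Gins3*, -0.31 to 0.24 for *Lig1*, -0.12 to 0.23 for *Mcm2*, -0.33 to 0.29 for *Mcm3*, -0.32 to 0.09 for *Mcm4*, -0.02 to 0.36 for *Mcm5*, -0.22 to 0.20 for *Mcm6*, -0.02 to 0.22 for *Mcm7*, -0.18 to 0.00 for *Orc1*, -0.13 to 0.08 for *Orc6*, -0.33 to 0.25 for *Pcna*, -0.51 to 0.16 for *Pola1*, -0.18 to 0.32 for *Pole*, -0.19 to 0.04 for *Pole2*, -0.18 to 0.23 for *Prim1*, -0.07 to 0.06 for *Rfc2*, -0.01 to 0.19 for *Rfc3*, -0.22 to 0.16 for *Rfc4*, -0.05 to 0.18 for *Rpa2*, -0.33 to 0.07 for *Rrm1*, -0.21 to 0.20 for *Tk1* and -0.07 to 0.64 for *Tyms*.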
